A study of Mus musculus with 6 samples.

Results

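NF-kappaB is a family of dimeric transcription factors that switches on inflammatory, survival and adhesion genes. In resting cells IkappaB proteins hold the dimers in the cytoplasm; an IkappaB kinase marks these inhibitors for destruction, and the freed dimers then enter the nucleus. Many of the genes they switch on encode brakes on the same route, such as IkappaB-alpha and the ubiquitin-editing enzyme encoded by Tnfaip3, so the RNA of these feedback genes is widely used as a readout of the pathway in tumour cells. A second branch, which runs through the kinase encoded by Map3k14, turns the Nfkb2 product into its mature form as a partner of the Relb product.

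The genes described here are 10 of the 55334 rows of the deposited count table, chosen by symbol: the subunit genes Rela, Relb, Nfkb1 and Nfkb2, the inhibitor and feedback genes Nfkbia, Nfkbiz, Tnfaip3, Traf1 and Birc3, and the adhesion target Icam1. All 10 had a row and passed the filter on low counts, with 61 to 51778 counts a library. The libraries are from Lewis lung carcinoma, a mouse lung tumour line, marked with green fluorescent protein (GFP) in both groups. The JAG2KO group (3 libraries, here called JagKO2, JagKO3 and JagKO4 after their column names) had been given a guide RNA for Jag2, a gene for a Notch ligand, and the Scramble group (3 libraries) a scrambled guide RNA. The cells were implanted in the flanks of mice, and polyA RNA was sequenced from live cells of the excised tumours, dissociated with Liberase and sorted for GFP and against the leukocyte antigen CD45. Strain, sex and age of the hosts, the day of collection, and whether either line is a single clone are not stated in the labels, nor is it said that each library is a separate mouse, so p-values measure the spread between these libraries, which may be technical.

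Library totals ran from 37036772 to 42914376 counts in JAG2KO and from 39448304 to 43923565 in Scramble, and 3 counts were worth 0.068 to 0.0811 CPM (counts scaled to a common library size). Jag2 itself had 0.514, 0.799 and 1.11 CPM in JAG2KO against 1.52, 1.1 and 1.02 CPM in Scramble (log2 fold change -0.58 ± 0.39 SE, adjusted p = 0.318 in edgeR). The groups overlapped, so its RNA does not check the labels; an edited gene can still be transcribed. The lung lineage markers Nkx2-1, Sftpb and Sftpa1 had 0 counts in all 6 libraries, while the keratin gene Krt18 had 280 to 332 CPM in JAG2KO and 259 to 273 CPM in Scramble. Over all tested genes 11.8% were called higher in JAG2KO and 12.5% lower, the shares to set beside the marker counts that follow. Of the 10 lung epithelial markers only 5 were tested, and of these 0 were called higher and 2 lower. The sums of all 10 were 284 to 339 CPM in JAG2KO and 391 to 399.6 CPM in Scramble. The keratin gene Krt8 had 3.17 to 4.71 CPM in JAG2KO and 119 to 128 CPM in Scramble. Markers of T, B and NK cells summed to 1.38 to 5.03 CPM in JAG2KO and 1.7 to 2.11 CPM in Scramble, and 9 of the 11 stayed under 1 CPM in every library; those of neutrophils summed to 0.541 to 2.03 CPM in JAG2KO and 1.35 to 3.69 CPM in Scramble. Of 15 macrophage markers 4 were called higher and 1 lower; they summed to 119 to 138 CPM in JAG2KO and 82.5 to 91.6 CPM in Scramble. Of 12 pericyte and fibroblast markers 7 were called higher and 1 lower, and their sums were 945 to 1377 CPM in JAG2KO and 781 to 933 CPM in Scramble. Of 13 endothelial markers 7 were called higher and 1, Eng, lower, with sums of 132 to 158 CPM in JAG2KO and 139 to 141 CPM in Scramble. Eng alone had 63.4 to 85.2 CPM in JAG2KO and 98.0 to 104 CPM in Scramble, and the other 12 summed to 60.3 to 79.8 CPM in JAG2KO and 36.7 to 40.7 CPM in Scramble.

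Several of the members are textbook NF-kappaB targets, so the 250 bases before their starts were searched for the kappaB consensus on both strands. The consensus was taken as GGGRNNYYCC, where R is A or G, Y is C or T and N is any base. RefSeq starts on GRCm38.p6 were at hand for 7 of the 10 genes; Relb, Nfkb1 and Nfkbiz had none in the table. Shown are the windows of the 4 called members that had an entry and, for comparison, of the uncalled inhibitor gene Nfkbia, each in the direction of its gene. Capitals mark stretches that match the consensus. The windows are chr9:21015690-21015939 (plus strand) for Icam1, chr2:34961773-34962022 (minus strand) for Traf1, chr10:19015411-19015660 (minus strand) for Tnfaip3, chr19:46304487-46304736 (plus strand) for Nfkb2 and chr12:55492648-55492897 (minus strand) for Nfkbia.
Icam1: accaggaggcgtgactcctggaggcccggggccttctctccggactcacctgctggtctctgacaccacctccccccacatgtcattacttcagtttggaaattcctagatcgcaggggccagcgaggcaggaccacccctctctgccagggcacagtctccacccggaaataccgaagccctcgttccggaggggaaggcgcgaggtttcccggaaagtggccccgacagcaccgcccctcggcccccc
Traf1: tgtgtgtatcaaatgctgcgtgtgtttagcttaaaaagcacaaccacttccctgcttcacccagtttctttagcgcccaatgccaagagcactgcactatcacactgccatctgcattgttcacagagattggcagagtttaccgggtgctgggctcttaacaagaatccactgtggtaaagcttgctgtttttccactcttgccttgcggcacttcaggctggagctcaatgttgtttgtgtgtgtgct
Tnfaip3: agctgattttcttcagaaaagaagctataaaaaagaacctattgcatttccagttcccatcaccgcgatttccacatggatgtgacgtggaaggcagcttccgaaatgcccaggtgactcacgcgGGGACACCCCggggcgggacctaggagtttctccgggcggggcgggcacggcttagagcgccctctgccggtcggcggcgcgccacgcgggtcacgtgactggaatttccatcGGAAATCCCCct
Nfkb2: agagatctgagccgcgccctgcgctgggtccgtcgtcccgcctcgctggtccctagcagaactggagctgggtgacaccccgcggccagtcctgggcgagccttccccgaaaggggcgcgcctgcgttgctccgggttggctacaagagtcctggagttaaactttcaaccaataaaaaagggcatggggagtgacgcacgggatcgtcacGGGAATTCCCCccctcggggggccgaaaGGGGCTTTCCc
Nfkbia: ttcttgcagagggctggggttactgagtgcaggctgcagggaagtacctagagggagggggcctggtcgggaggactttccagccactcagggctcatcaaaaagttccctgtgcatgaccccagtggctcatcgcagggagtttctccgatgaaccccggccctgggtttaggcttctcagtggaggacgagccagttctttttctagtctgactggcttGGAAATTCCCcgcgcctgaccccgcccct

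The window of Nfkb2 held 2 stretches, at 39 to 29 and 11 to 2 bases before the start, the first of them matching on both strands. The window of Tnfaip3 also held 2, at 125 to 116 bases (on both strands) and 12 to 3 bases, and that of Nfkbia held 1, at 29 to 20 bases. Each of 2 further Nfkb2 starts had 1 stretch and a second Tnfaip3 start had none. The RefSeq starts differ from those of GENCODE M21, used for the gene positions below. There Nfkb2 starts at 46304320 and Tnfaip3 at 19015657. The shown Nfkb2 window thus lies inside the GENCODE gene, and so does nearly all of the Tnfaip3 window. The windows of Rela, Traf1, Birc3 and Icam1 held no match to the consensus. That of Icam1 does hold tggaaattcc, which differs from the consensus in its first letter only. The same is true of aggactttcc in the window of the uncalled Nfkbia and of tggaatttcc in the shown window of Tnfaip3. Sites that differ from the consensus were not searched for, so a window without a match may still hold a kappaB site. Of all genes in the table, 8.23% had a match in at least 1 window. The shorter motif GGGAA, which lies inside some of those matches, was present in all 7 genes and in 59.4% of all genes.

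**Figure D1:**
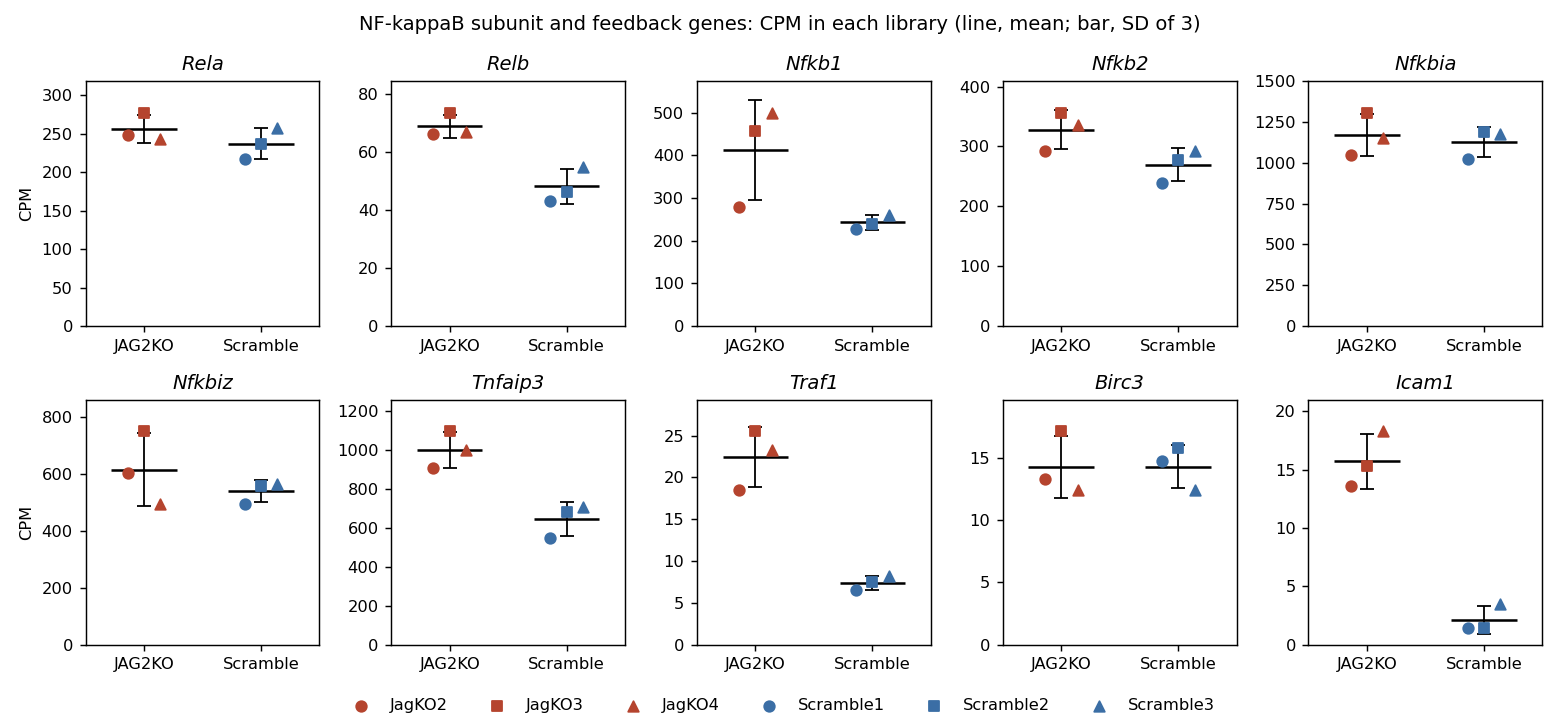
CPM of each member in the 6 libraries, JAG2KO on the left of each panel; points are libraries, lines are means and bars are SDs of 3 libraries. The groups lie wholly apart for Relb, Nfkb1, Nfkb2, Tnfaip3, Traf1 and Icam1 and overlap for Rela, Nfkbia, Nfkbiz and Birc3.

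Of the 10 members, 6 rose in JAG2KO and 0 fell (edgeR quasi-likelihood test, adjusted over 16049 tested genes), where 11.8% of all tested genes were called higher and 12.5% lower. The same 6 genes, Relb, Nfkb1, Nfkb2, Tnfaip3, Traf1 and Icam1, had all 3 JAG2KO values above all 3 Scramble values, which held for 19.5% of all tested genes; the opposite order held for 20.9%. Their log2 fold changes ran from 0.28 to 2.92, and the median over all 10 members was 0.40, beside 0.00 over all tested genes. The members were chosen with results of these data known, so the count describes them and is not a test of the set. These are bulk samples, in which fewer cells of a type and less RNA per cell cannot be told apart.

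Among the subunit genes, Rela, which encodes the main activating subunit, differed least. It had 248, 277 and 243 CPM in JagKO2, JagKO3 and JagKO4, against 216, 236 and 257 CPM in Scramble replicates 1, 2 and 3. The groups overlapped, and the log2 fold change of 0.11 (SE 0.08) missed the threshold (adjusted p = 0.322 in edgeR). Relb, the subunit of the second branch, had 66.5, 73.6 and 66.9 CPM in the JAG2KO libraries against 43.2, 46.4 and 55.1 CPM in Scramble. Every JAG2KO library lay above every Scramble library, with a log2 fold change of 0.52 ± 0.09 (SE; adjusted p = 0.00168 in edgeR).

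The genes for the precursor subunits rose as well, Nfkb1 more than Nfkb2 in its point estimate. Nfkb1 had 278, 457.7 and 499 CPM in JagKO2, JagKO3 and JagKO4 against 228, 238 and 261 CPM in Scramble. JagKO2 stood close to the Scramble libraries and well under the other two JAG2KO libraries. The log2 fold change was 0.76 ± 0.16 (SE; adjusted p = 0.00498 in edgeR), and it was 0.98 without JagKO2 and 0.60 without JagKO4. Nfkb1 lies on chromosome 3, 135584655 to 135691547 (minus strand, GENCODE M21 on GRCm38), where 24.1% of the other tested genes were called higher. Of its 14 nearest tested genes 4 were called higher and 0 lower, and their median log2 fold change was 0.34; the adjacent Oaz2-ps and Gm43430 were not called.

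Nfkb2 had 292.5, 356 and 335.5 CPM in the JAG2KO libraries against 238, 277 and 292.3 CPM in Scramble. JagKO2 was barely above Scramble replicate 3, so the groups only just parted. The log2 fold change was 0.28 ± 0.09 (SE; adjusted p = 0.0369 in edgeR), and the call ended without JagKO3, without JagKO4, without Scramble replicate 1 or without Scramble replicate 2 (adjusted p = 0.0653 to 0.13). On chromosome 19 (46304320 to 46312385, plus strand) its exons share 299 bases with Psd and 531 with the long noncoding gene AC114539.1, both on the opposite strand. Psd had a log2 fold change of 0.74 ± 0.14 (SE; adjusted p = 0.00217 in edgeR) and AC114539.1 one of 0.65, whose call ended without JagKO3, without JagKO4, without Scramble replicate 1 or without Scramble replicate 2 (adjusted p = 0.0624 to 0.0874). No source used here gives the strand setting of the counting, so reads of these genes may not be told apart and the level of Nfkb2 is uncertain.

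Rel, the remaining gene of the Rel family and no member, rose more than the 4 member subunits in its point estimate. It had 54.6, 87.2 and 80.3 CPM in JagKO2, JagKO3 and JagKO4 against 22.8, 21.3 and 27.1 CPM in Scramble. The log2 fold change was 1.64 ± 0.15 (SE; adjusted p = 1.43e-05 in edgeR). As for Nfkb1, JagKO2 was the lowest of the JAG2KO libraries, but here it was far above the highest Scramble value.

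Neither of the IkappaB genes among the members passed the test. Nfkbia, which encodes IkappaB-alpha, had 1051, 1306 and 1152 CPM in the JAG2KO libraries against 1024, 1188 and 1180 CPM in Scramble. The groups overlapped, with a log2 fold change of 0.05 ± 0.08 (SE; adjusted p = 0.728 in edgeR). Nfkbiz, which encodes the nuclear protein IkappaB-zeta, had 603, 749 and 494 CPM in JAG2KO against 495, 559 and 565 CPM in Scramble. JagKO3 was above and JagKO4 below every Scramble library; the log2 fold change was 0.19 ± 0.12 (SE; adjusted p = 0.282 in edgeR). It passed the threshold without JagKO4 (log2 fold change 0.32, adjusted p = 0.0459) and without a filter on low counts (adjusted p = 0.0347).

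Tnfaip3, whose product trims ubiquitin chains off signalling adaptors, rose. It had 905, 1093 and 998 CPM in the JAG2KO libraries against 545, 682 and 706 CPM in Scramble, so the lowest JAG2KO value lay well above the highest Scramble value. The log2 fold change was 0.63 ± 0.10 (SE; adjusted p = 0.000645 in edgeR). On chromosome 10 (19000910 to 19015657, minus strand) 3 of its 14 nearest tested genes were called higher and 0 lower (median log2 fold change 0.23), and 18.8% of the chromosome's other tested genes were called higher. The adjacent Ifngr1, an interferon-gamma receptor gene, had 0.39 ± 0.08 (SE; adjusted p = 0.00345 in edgeR) and Perp on the other side 0.21 (SE 0.59, not called).

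The survival and adaptor genes differed from each other. Traf1, a signalling adaptor of the tumour necrosis factor receptor family, had 18.5, 25.5 and 23.3 CPM in the JAG2KO libraries against 6.48, 7.46 and 8.22 CPM in Scramble. The groups were far apart, with a log2 fold change of 1.60 ± 0.14 (SE; adjusted p = 1.16e-05 in edgeR). Among its 14 nearest tested genes on chromosome 2 (Traf1 at 34941750 to 34961772, minus strand), 1 was called higher and 3 lower, and the adjacent Phf19 and Gm13450 were not called. Of the other tested genes of chromosome 2, 9.67% were called higher and 12.4% lower. Birc3, a ubiquitin ligase gene of the inhibitor of apoptosis family, had 13.3, 17.1 and 12.4 CPM in JAG2KO against 14.7, 15.8 and 12.4 CPM in Scramble. The means were 14.3 ± 2.49 CPM in JAG2KO and 14.3 ± 1.73 CPM in Scramble (SD, n = 3 each), with a log2 fold change of -0.00 ± 0.14 (SE; adjusted p = 0.992 in edgeR).

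Around 3 of the 4 members that were not called, several neighbours were called lower and none higher. Of the 14 nearest tested genes, 5 were called lower and 0 higher around Rela (chromosome 19, 5637483 to 5648130, plus strand), with a median log2 fold change of -0.26. On the whole of chromosome 19, 23.4% of the other tested genes were called lower. Around Nfkbia (chromosome 12, 55489410 to 55492647, minus strand) 6 were called lower and 0 higher, with a median of -0.28, where 24.1% of the chromosome's other tested genes were called lower. Around Birc3 (chromosome 9, 7848699 to 7873186, minus strand) 4 were called lower and 0 higher, with a median of -0.24, where the chromosome's share called lower was 12.6%. These 4 were Mmp3, Mmp1a and Mmp10, with log2 fold changes of -3.66, -3.22 and -3.49, and Cep126 with -1.04. Birc2 and Yap1, adjacent to Birc3, had 0.23 and -0.19 and were not called. Nfkbiz (chromosome 16, 55811375 to 55838899, minus strand) had 1 called lower and 0 higher among its 14. Of the other tested genes of chromosome 16, 15.2% were called lower and 7.19% higher. Among the called members, Nfkb2 had 2 higher and 4 lower, with a median of -0.21. Its 2 higher neighbours were the adjacent Psd and AC114539.1, whose exons overlap those of Nfkb2 and whose reads may not be told apart from its own. Relb had 2 higher and 1 lower on chromosome 7 (19606217 to 19629438, minus strand), and the adjacent Clasrp and Clptm1 were not called. Of the other tested genes of chromosome 7, 11.8% were called higher and 6.2% lower. The part of the neighbourhood in any member's value was not tested.

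Icam1, the adhesion molecule that leukocyte integrins bind, had the largest fold change of the 10. It had 13.6, 15.3 and 18.3 CPM in JagKO2, JagKO3 and JagKO4, against 1.43, 1.4 and 3.46 CPM in Scramble replicates 1, 2 and 3. Scramble replicate 3 stood well above the other Scramble libraries but far under every JAG2KO library. The log2 fold change was 2.92 ± 0.30 (SE; adjusted p = 2.69e-05 in edgeR), or 7.55-fold, and it was 3.47 without Scramble replicate 3. Around Icam1 on chromosome 9 (21015985 to 21028817, plus strand) 0 of the 14 nearest tested genes were called higher and 1 lower. Of the chromosome's other tested genes 9.98% were called higher and 12.6% lower. The adjacent Mrpl4 and Icam5 had log2 fold changes of 0.08 and 0.11 and were not called. The antisense model Gm47079, which shares 511 exon bases with Icam1, had 1 to 4 counts a library in JAG2KO and 4 to 8 in Scramble.

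**Figure D2:**
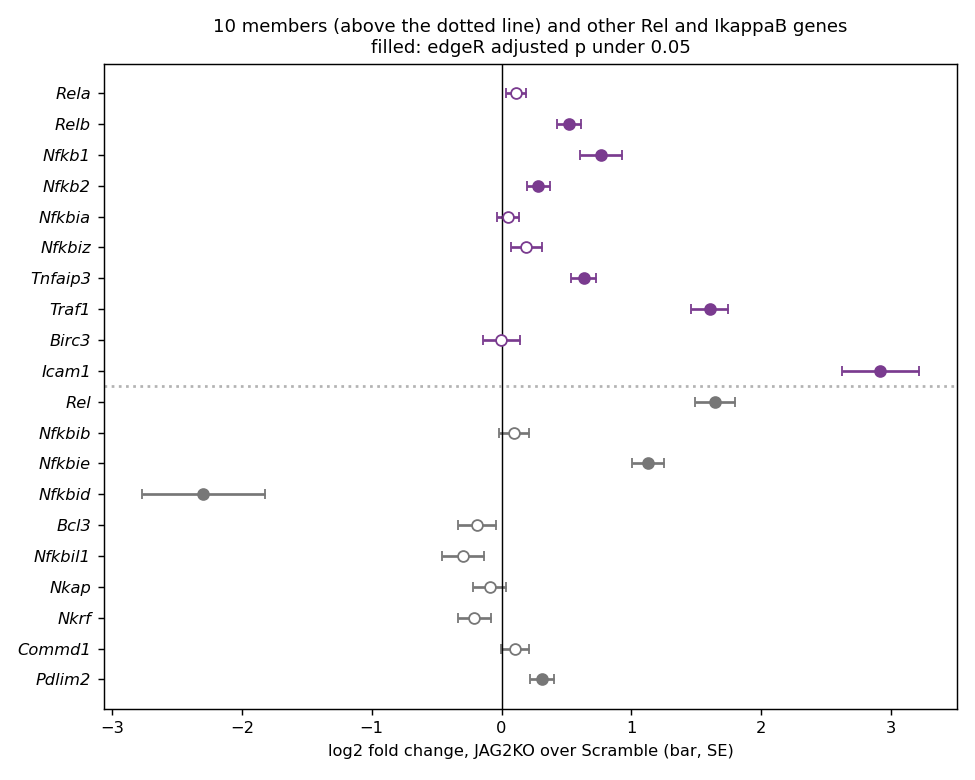
Log2 fold change of JAG2KO over Scramble for the 10 members (above the dotted line) and the 10 other Rel and IkappaB genes; bars are SEs and filled points passed the edgeR threshold. Icam1 at 2.92 and Traf1 at 1.60 lead the members, Rel at 1.64 and Nfkbie at 1.13 lead the other genes, and Nfkbid at -2.30 is the lowest point.

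Macrophages and endothelial cells also express Icam1, Tnfaip3 and Traf1. The marker sums of macrophages and of pericytes and fibroblasts were higher in every JAG2KO library than in any Scramble library. For endothelial cells this held only once Eng was left out, and with Eng the sums overlapped. Some markers went the other way: Cd14, Fap and Eng were called lower, Fap with means of 3.61 CPM in JAG2KO and 19 CPM in Scramble. Dcn and Lum, with the highest levels of the pericyte and fibroblast list, overlapped between the groups and were not called. The pan-leukocyte gene Ptprc, which encodes the antigen of the sort, had 2.46, 3.89 and 2.42 CPM in JAG2KO against 2.24, 2.09 and 2.11 CPM in Scramble. It was not called (log2 fold change 0.44 ± 0.26 SE, adjusted p = 0.246 in edgeR). The endothelial marker Pecam1 had 14.8, 10.3 and 17.8 CPM in JAG2KO against 7.71, 5.74 and 5.68 CPM in Scramble (log2 fold change 1.17, edgeR adjusted p = 0.00134). Within JAG2KO, JagKO2 was the highest library for 8 of 15 macrophage markers and 11 of 12 pericyte and fibroblast markers, and JagKO4 for 8 of 13 endothelial markers. Over all tested genes JagKO2 was highest for 39.1% and JagKO4 for 28.3%. JagKO2 had the lowest CPM of 7 of the 10 members, against 35.9% of all tested genes, and JagKO4 had the highest CPM of Icam1 and Nfkb1. Without JagKO2 the same 6 members were called. The part of other cells in the members' differences was not tested.

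Per kilobase of exon, the members spanned a wide range of levels. Nfkbia stood highest, with 726 ± 80 CPM per kilobase in JAG2KO and 702 ± 57.3 in Scramble (SD, n = 3 each). Tnfaip3 (138 ± 13), Nfkbiz (123 ± 25.5), Rela (83.3 ± 5.91) and Nfkb2 (71.5 ± 7.07) followed in JAG2KO; the libraries of Tnfaip3 and Nfkbiz overlapped, while each Rela value was above each Nfkb2 value. Nfkb1 (34.1 ± 9.74) and Relb (17.8 ± 1.02 CPM per kilobase) came next. Icam1 (3.6 ± 0.544), Birc3 (2.85 ± 0.497) and Traf1 (2.54 ± 0.408 CPM per kilobase) stood lowest in JAG2KO and overlapped with the next in order. In Scramble those low genes had 0.481 ± 0.271 for Icam1, 2.85 ± 0.346 for Birc3 and 0.838 ± 0.0988 CPM per kilobase for Traf1, so Icam1 was the lowest of these 3 genes in Scramble. The order depends on the length taken. With the longest transcript in place of all exons, Traf1 (6.52) stood above Icam1 (6.2) and Birc3 (4.91 CPM per kilobase) in JAG2KO, and Icam1 (0.827) was still under Traf1 (2.15) and Birc3 (4.91) in Scramble. On that scale Nfkb1 stood at 99.2 and Rela at 94.2 CPM per kilobase in JAG2KO.

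Members also varied together among libraries of a group. JagKO3 had the highest CPM within JAG2KO for 8 of the 10 members and JagKO2 for 0, whereas over all tested genes these libraries were highest for 32.6% and 39.1%. In Scramble, replicate 3 was highest for 8 of the 10 members and replicate 1 for 0, against 34.9% and 33.1% of all tested genes. The median deviation from the group's mean on the log2 CPM scale was -0.14 for JagKO2, 0.15 for JagKO3 and -0.01 for JagKO4. It was -0.15, 0.03 and 0.12 for Scramble replicates 1, 2 and 3. This order is a description of 10 genes in 6 libraries.

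**Figure D3:**
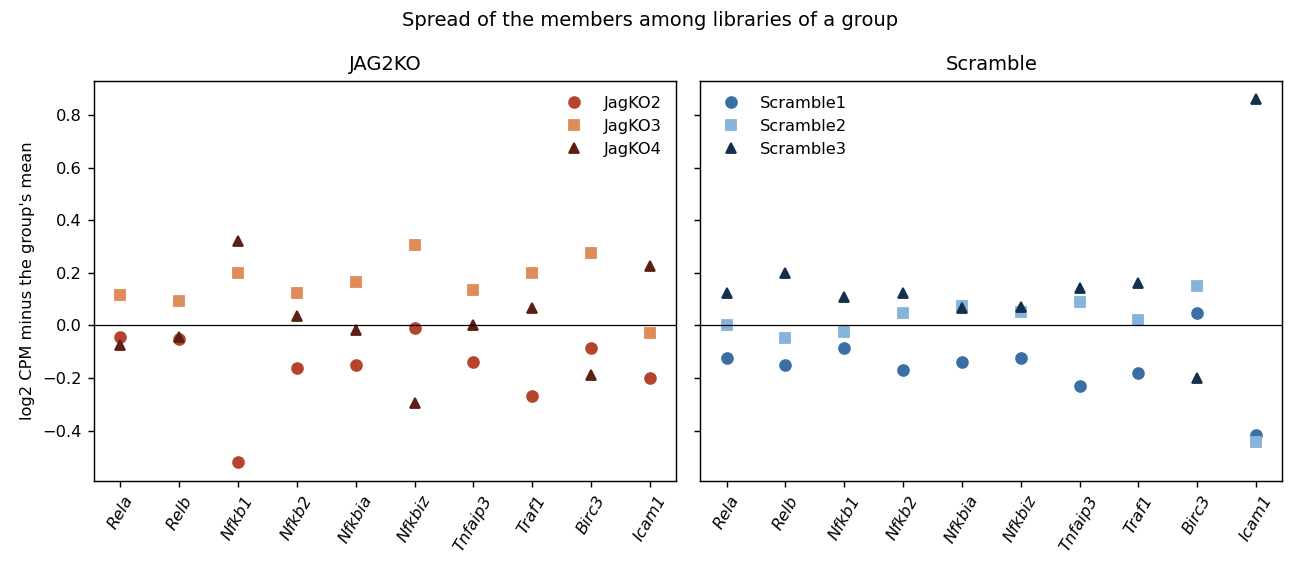
Log2 CPM of each member minus its group's mean, JAG2KO on the left and Scramble on the right; each point is a library. JagKO3 lies above its group's mean for 9 of the 10 members and JagKO2 below it for all 10, and the widest spread is that of Icam1 in Scramble, where replicate 3 lies 0.86 above the mean.

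The other genes of the pathway were taken from 5 lists, 114 genes in all, of which 3 were on more than 1 list. Of the 108 that were tested, 19 (17.6%) were called higher and 16 (14.8%) lower, beside 11.8% and 12.5% of all tested genes, and their median log2 fold change was 0.03. The lists are given from the nuclear proteins outwards.

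Of 10 other Rel and IkappaB genes, 3 (30%) rose and 1 (10%) fell (median log2 fold change 0.00). Nfkbie, which encodes IkappaB-epsilon, a further cytoplasmic inhibitor, rose to 83.9 ± 13.9 CPM in JAG2KO, against 38.4 ± 4.98 CPM in Scramble (SD, n = 3 each; log2 fold change 1.13 ± 0.12 SE, adjusted p = 4.71e-05 in edgeR). Besides Rel and Nfkbie, Pdlim2, a gene for a ubiquitin ligase that acts on the Rela product, rose with a log2 fold change of 0.31 (adjusted p = 0.0291 in edgeR); the call ended without JagKO2, without Scramble replicate 1 or without Scramble replicate 3 (adjusted p = 0.0576 to 0.103). Nfkbid, an atypical nuclear IkappaB gene, fell to 0.27, 0.532 and 0.485 CPM in the JAG2KO libraries, against 1.54, 1.26 and 3.59 CPM in Scramble (log2 fold change -2.30 ± 0.47 SE, adjusted p = 0.00396 in edgeR). It had 10 to 21 counts a library in JAG2KO, and without Scramble replicate 3 its log2 fold change was -1.70. Not past the threshold were Nfkbib (log2 fold change 0.10), Bcl3 (-0.19), Nfkbil1 (-0.30), Nkap (-0.09), Nkrf (-0.21) and Commd1 (0.11).

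Of 22 receptor and ligand genes 20 were tested, and 2 rose and 2 fell, which is 10% in each direction and near the 11.8% and 12.5% of all tested genes. Tnf, the prototype inducer of the pathway, had 0.703, 0.825 and 1.06 CPM in the JAG2KO libraries against 0.0453, 0.0459 and 0.153 CPM in Scramble. These are 26, 31 and 46 counts in JAG2KO and 2, 2 and 6 in Scramble; the log2 fold change was 3.39 ± 0.62 (SE; adjusted p = 0.00192 in edgeR), and 4.15 without Scramble replicate 3. Tnfsf11, the ligand that drives osteoclast formation, had 0, 0.24 and 0.139 CPM in JAG2KO against 3.08, 2.82 and 2.24 CPM in Scramble (log2 fold change -4.39 ± 0.58 SE, adjusted p = 0.00021 in edgeR), and -5.15 without JagKO3. The receptor gene Tnfrsf1a fell by 0.27 on the log2 scale (adjusted p = 0.0108 in edgeR), a call that ended without JagKO4 or without Scramble replicate 2 (adjusted p = 0.0513 to 0.0651). The fourth called gene, Tlr2, a receptor for bacterial lipoproteins, was chosen after its value was seen and had a log2 fold change of 0.64 (adjusted p = 0.014 in edgeR); its call ended without Scramble replicate 3 (adjusted p = 0.0526).

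Of 30 genes for adaptors, kinases and ubiquitin enzymes, 4 (13.3%) rose and 2 (6.67%) fell, shares near or under those of all tested genes. Irak2, a kinase-family gene of the interleukin-1 receptor route, and Ripk2, the kinase downstream of the NOD receptors, rose with log2 fold changes of 0.84 (SE 0.10) and 0.85 (SE 0.12; edgeR adjusted p = 7.27e-05 and 0.000267). Map3k14, the kinase that starts the second branch, had 35.2, 25.3 and 29.2 CPM in the JAG2KO libraries against 17.5, 18.5 and 19.5 CPM in Scramble (log2 fold change 0.69 ± 0.12 SE, adjusted p = 0.00136 in edgeR). Here JagKO2 was the highest library, unlike for Nfkb2 and Relb. The remaining called genes were chosen after their values were seen: Sharpin, of the linear ubiquitin ligase, had a log2 fold change of 0.22, Irak4 -0.33 and Traf3, which holds the Map3k14 product in check, -0.20 (adjusted p = 0.0499, 0.0191 and 0.0437 in edgeR). The calls of Sharpin and Traf3 ended when any single library was left out (adjusted p = 0.0587 to 0.128 for Sharpin and 0.0548 to 0.135 for Traf3), and that of Irak4 without JagKO3 or without any 1 of the Scramble libraries (0.0524 to 0.0749). The IkappaB kinase genes, also picked after their values were seen, had log2 fold changes of -0.01 for Ikbkb, 0.03 for Chuk and -0.05 for Ikbkg, with SEs of 0.06 to 0.07.

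Of 15 negative regulator genes, 3 (20%) rose and 1 (6.67%) fell. Tnip1, whose product works with that of Tnfaip3, rose to 68.6 ± 2.41 CPM in JAG2KO, against 48.2 ± 2.59 CPM in Scramble (SD, n = 3 each; log2 fold change 0.51 ± 0.07 SE, adjusted p = 0.000306 in edgeR). Nlrc3, a NOD-like receptor gene, rose with a log2 fold change of 1.10 (adjusted p = 0.000563 in edgeR). Tnip3, a relative of Tnip1, fell to 0.75 ± 0.268 CPM in JAG2KO, against 3.95 ± 1.01 CPM in Scramble (log2 fold change -2.40, edgeR adjusted p = 0.000265). The remaining called gene was Irak3, a brake on the interleukin-1 receptor route, at 1.02 ± 0.285 CPM in JAG2KO and 0.308 ± 0.197 CPM in Scramble (adjusted p = 0.0441 in edgeR), chosen after its value was seen. Its call ended without JagKO2, without JagKO4, without Scramble replicate 2 or without Scramble replicate 3 (adjusted p = 0.0849 to 0.14).

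Other target genes split in direction. Of 36 tested out of 40, 9 (25%) rose and 10 (27.8%) fell, and the median log2 fold change was -0.01. The chemokine gene Cxcl2, which draws neutrophils, had 91.1, 125 and 126 CPM in the JAG2KO libraries against 10.3, 12.6 and 14.4 CPM in Scramble (log2 fold change 3.19 ± 0.14 SE, adjusted p = 3e-08 in edgeR). Mmp9, a gelatinase gene, rose to 34.3 ± 6.96 CPM in JAG2KO, against 14 ± 2.05 CPM in Scramble (log2 fold change 1.29, edgeR adjusted p = 6.74e-05). Among those that fell, chosen after their values were seen, were the adhesion gene Vcam1 and the enzyme genes Ptgs2, Nos2 and Sod2. Vcam1 had 218, 204 and 203 CPM in JAG2KO against 301, 354 and 306 CPM in Scramble, a log2 fold change of -0.62 (adjusted p = 8.67e-05 in edgeR), while the member Icam1, also an adhesion gene, rose. The adhesion gene Sele, also chosen after its value was seen, was not called (log2 fold change -0.06, adjusted p = 0.805 in edgeR). Ptgs2, Nos2 and Sod2, for the synthesis of prostaglandins and nitric oxide and the removal of superoxide, fell by 0.71, 0.56 and 0.30 on the log2 scale (adjusted p = 0.00882, 0.00344 and 0.01 in edgeR); the call of Sod2 ended without Scramble replicate 2 (adjusted p = 0.0625).

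**Figure D4:**
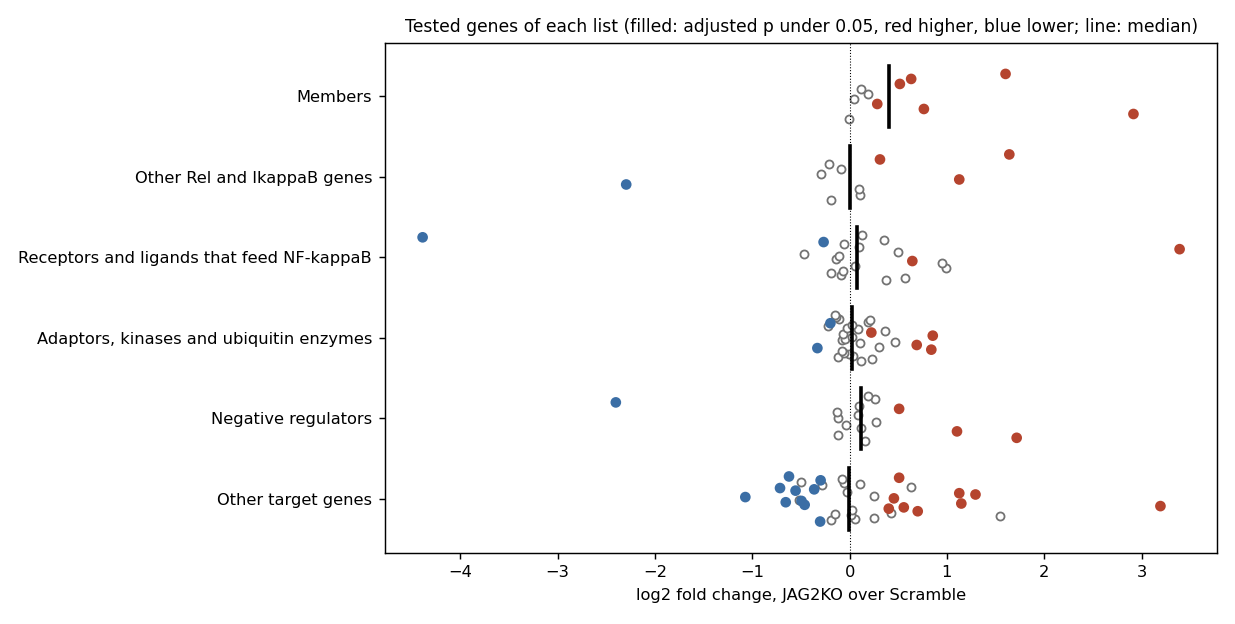
Log2 fold changes of the tested genes in each list, members on top; red points were called higher, blue points lower, open points were not called and the black line is the list's median. The median is 0.40 for the 10 members and -0.01 for the 36 tested other target genes, whose points lie on both sides of 0.

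**Figure D5:**
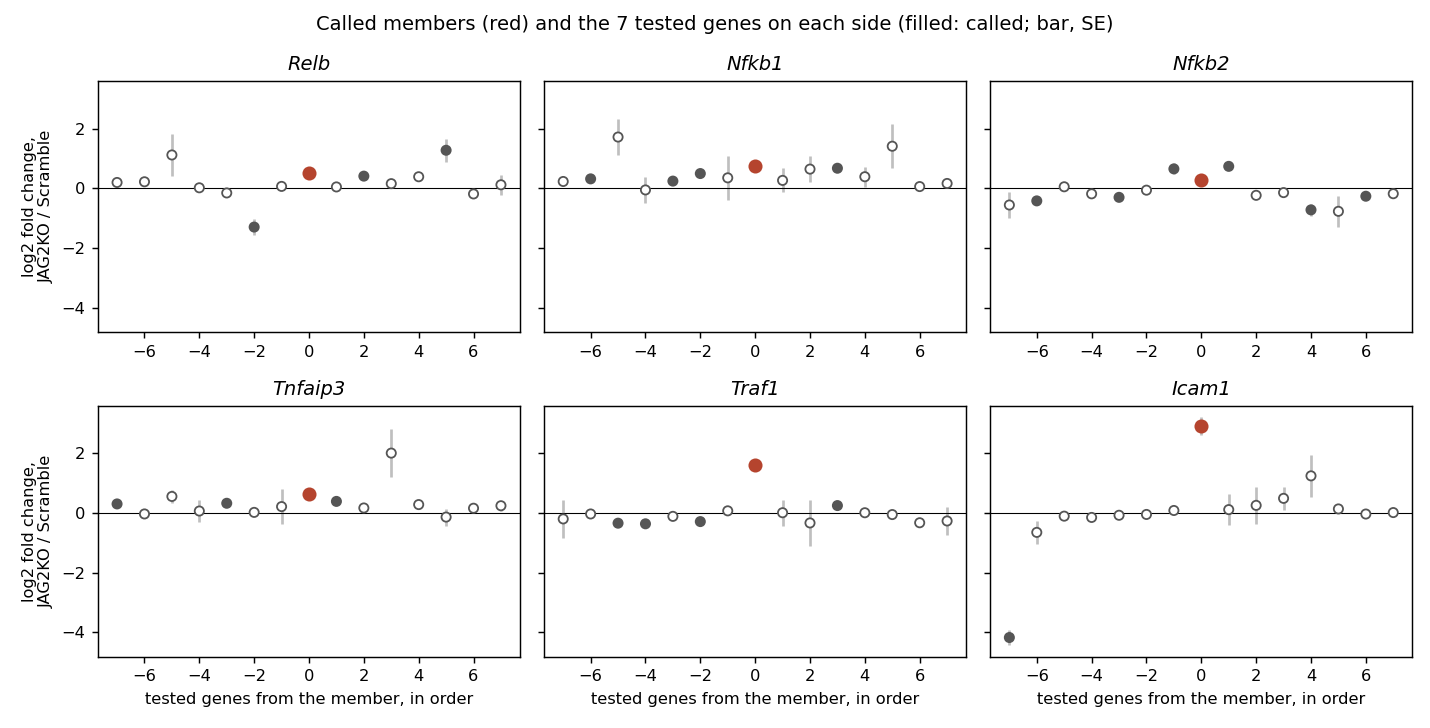
Log2 fold changes of the 6 called members (red, centre of each panel) and of the 7 tested genes on each side in chromosome order; bars are SEs and filled points were called. The neighbours of Nfkb1 and Tnfaip3 have medians of 0.34 and 0.23, and those of Traf1 and Icam1 have medians of -0.16 and -0.01.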

How the data were processed

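PolyA RNA was sequenced in 6 libraries, and the authors deposited 1 table of whole-number counts, for 55334 versioned Ensembl IDs. The submitters' processing notes list the tools STAR 2.7.7a and HTSeq 0.11.2; no source used here gives their settings, the genome build, the annotation or the strand setting, so reads over paralogs, pseudogenes, overlapping or antisense genes can be shared or lost. Of the named genes, Irak2, Irak3, Irak4, Ikbkg, Vcam1, Nfkbib, Nfkbil1, Nkap, Bcl3 and Commd1 share exon bases with a gene on the opposite strand and Map3k14 with one on its own, so their values are uncertain to that extent. Columns were tied to groups by name; the JAG2KO columns are numbered 2 to 4 and the titles 1 to 3, so those libraries carry no replicate number. Symbols came from GENCODE names matched by stable ID (55154 IDs), and positions, exon lengths and overlaps from GENCODE M21 on GRCm38, which may differ from the authors' annotation. Library pairs of a group differed by more than sampling noise (chi-square over its degrees of freedom 12.2 to 31.0, genes with 20 or more counts in the pair).

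Counts were fitted across all genes in R 4.3.3 with edgeR 4.0.16: filterByExpr (minimum count 10, minimum total 15), TMM factors and the quasi-likelihood F test, JAG2KO over Scramble, Benjamini-Hochberg adjusted over 16049 genes and called under 0.05. CPM use TMM-scaled library sizes; the SE is the log2 fold change divided by the square root of F. Alternatives were no filter, RLE factors, library totals with no factor, CPM of at least 1 in 3 libraries, DESeq2 1.42.0, limma-voom (limma 3.58.1), each library's trend with GC content and transcript length taken out (splines with 5 degrees of freedom), and each library left out in turn. The procedures were tested on simulated data. The members and lists were chosen with earlier results of these data known. Named are all members, all other Rel and IkappaB genes, up to 3 called genes with the smallest p of each other list, and the adjacent tested genes of called members. Exceptions in the pathway lists are marked. Single cell type markers, such as Pecam1, Ptprc, Eng, Krt8 and Krt18, and the neighbours of Birc3 were named outside this rule. Lists have counts and medians only, with no set test. Promoter sequences are from RefSeq (GRCm38.p6).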

Additional observations from a re-analysis of the deposited data

How the results depend on the processing

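The members' count called higher was 5 to 7 across the other settings and 5 to 6 when single libraries were left out, and 0 members were called lower in any of them. Relb, Nfkb1, Tnfaip3, Traf1 and Icam1 were called in all 13 alternatives, and Rela, Nfkbia and Birc3 in 0. Nfkb2 was called in 8 (adjusted p = 0.000593 to 0.13); besides the libraries named above it missed the threshold once GC content and length trends were removed (adjusted p = 0.0755). Nfkbiz was called in 2 (adjusted p = 0.0347 to 0.888). Over all tested genes, 1356 to 1926 were called higher and 1349 to 2093 lower without single libraries. The median log2 fold change of all tested genes lay between -0.01 and 0.02 in these settings. Among receptor and ligand genes, the CPM filter left 1 called higher, and without single libraries 1 to 2 were called higher and 1 to 3 lower. Among adaptors and kinases, library totals alone and no filter each left 1 called lower, and leaving out single libraries 0 to 1. Sharpin also missed the threshold with no filter (adjusted p = 0.0598) and in limma-voom (0.052), and Traf3 with library totals alone (0.0527) and no filter (0.103). Limma-voom gave Tnfsf11 a log2 fold change of -5.05. With the longest transcript as length, 4 of the 10 members kept their place in the order of levels per kilobase. No paired analysis was possible because the JAG2KO columns cannot be tied to the replicate numbers of the titles. Depth limits Tnf, Tnfsf11, Nfkbid, Irak3 and Tnip3, which had few counts in at least 1 group. Irak3 had 21, 4 and 14 counts in Scramble, and Tnip3 had 26, 39 and 22 in JAG2KO.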
